A study of Homo sapiens with 8 samples.

Results

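The comparison set DU145-Esrrb cells treated with DY131 against DU145-pc3.1 cells treated with DY131, so that both sides received the compound and differed by the Esrrb vector. Its members were chosen by the sample labels alone and are 4 of the 8 libraries of the series, 2 per group. DU145 cells come from a human prostate cancer. The cells of all groups were transfected with a pcDNA3.1-zeo (+) vector, selected with Zeocine and used as pools at passages 5 to 6, and the vector was empty in DU145-pc3.1 cells and carried Esrrb in DU145-Esrrb cells. Treated cells were kept with 3 μM DY131 in medium with charcoal-stripped serum, for a length of time not given in the sources used here. The other 4 libraries, from the same pools without DY131, give the Esrrb effect without DY131, and they also entered the filter on low counts and the single model behind every test. The study calls the 2 samples of a group biological replicates, and the labels do not say whether they came from separate transfections, so the p-values measure the spread between these samples, which may be technical. The 2 libraries of DY131-treated DU145-Esrrb cells carry no replicate number in the count table and are called a and b.

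Estrogen related receptor beta (Esrrb) is an orphan nuclear receptor that binds DNA at a short element, the estrogen related receptor element, and turns on genes without a known natural ligand. It is best known as one of the transcription factors that maintain mouse embryonic stem cells, and the related receptors alpha and gamma are known for driving genes of mitochondrial metabolism. DY131 is a synthetic agonist of the beta and gamma receptors. In prostate cancer cells Esrrb has been studied as a brake on growth.

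ESRRB itself was looked at first. No read and 1 read were counted on ESRRB in DY131-treated DU145-pc3.1 replicates 1 and 2, against 105 reads and 143 reads in libraries a and b of DY131-treated DU145-Esrrb cells. The latter correspond to 13.4 cpm (reads on the gene per 1000000 counted reads), with a 95% Wilson interval of 11.04 to 16.17 cpm, and to 15.8 cpm, with an interval of 13.4 to 18.6 cpm. The ratio of the pooled counts was 312-fold, with an exact 95% counting interval of 55.5 to 12380, which covers counting error only. All libraries therefore went with their labelled pool. The log2 fold change was 7.96 ± 0.48 (SE) with an adjusted p of 4.36e-09 in the quasi-likelihood test of edgeR, Benjamini-Hochberg adjusted. That test is behind every adjusted p below. SE here and below is the absolute log2 fold change divided by the square root of the F statistic of that test. It therefore restates the test and is no separate measure of spread. With few reads in a group, as for ESRRB, it is too narrow, and the counting interval is the one to read. ESRRB is listed under NM_004452 and lies on chromosome 14 of GRCh38 from 76310712 to 76501837. Reads from the vector and from the cells' own gene could not be told apart. ESRRG, the other receptor that DY131 activates, had 1 read in library b and none in the other 3 treated libraries. From here on, cpm are relative to library sizes scaled by the trimmed mean of M values (TMM), except for summed levels, which are per 1000000 counted reads. ESRRA, the third member of the family, was at 44.6 and 41.5 cpm in DY131-treated DU145-pc3.1 cells and at 44.6 and 42.0 cpm in DY131-treated DU145-Esrrb cells.

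Cell identity was checked with marker genes. The summed level of the epithelial markers was 3850 to 4516 cpm in DY131-treated DU145-pc3.1 cells and 4043 to 4082 cpm in DY131-treated DU145-Esrrb cells, and KRT8, a keratin of simple epithelia, was between 1123 and 1626 cpm in the 4 libraries. The sum was mostly that of 4 keratin genes, none of them called. Of the 9 tested epithelial markers, 7 had a negative log2 fold change. Called lower with Esrrb were 3 of them (33.3%, against 6.06% of all tested genes), namely ESRP1, CLDN7 and CLDN4. The median over the 9 was -0.49 and the lowest value was -5.61. Of the leukocyte markers, PTPRC, CD3E, MPO and TYROBP did not reach 1 cpm in 2 libraries, and the summed level of 59.7 to 61.6 cpm against 89.2 to 92.3 cpm was mostly CD68, which cells of other lineages also express. LYZ, which encodes lysozyme, was called lower with Esrrb, at 15 and 12 reads without and 2 and 3 reads with it, a ratio of 4.29-fold with an exact counting interval of 1.63 to 14.3. No endothelial marker and 1 of 8 fibroblast markers passed the filter, and their summed levels were at most 1.35 cpm and 6.4 cpm. KLK2 and KLK3, which mark androgen-responsive luminal cells, were not among the tested genes, whereas 5 other genes of that list were, none of them called. In bulk RNA, fewer cells that express a gene and less of its RNA per cell cannot be told apart.

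The DU145-pc3.1+DY131 libraries held 10624183 and 10393389 counted reads, and the DU145-Esrrb+DY131 libraries 7858743 and 9054498. The latter stood apart from all 6 other libraries in several measures. They had 24.7 and 26.4 reads per 1000000 on microRNA and small nucleolar RNA genes, against 167 to 364 in the other 6 libraries. MTRNR2L genes, nuclear copies related to a mitochondrial ribosomal RNA, summed to 273 and 304 cpm against 685 to 1944 cpm. Cytosolic ribosomal protein genes took 2.65% and 2.76% of their reads, against 3.75% to 4.68%. The spread between replicates was also uneven, with a chi-square per degree of freedom of 7.10 between the DU145-pc3.1+DY131 libraries and 1.29 between the DU145-Esrrb+DY131 libraries. Across 13664 genes, the log2 fold change in treated cells fell with the share of a gene's 50-base transcript windows that cross an exon junction, with a Spearman correlation of -0.47, against -0.04 for the Esrrb effect in untreated cells. Genes are not independent replicates and all points share the same 4 libraries, so no p is given. From the tenth of genes with the smallest junction share to the tenth with the largest, the median log2 fold change went from 0.33 to -0.55. The junction share of the genes, the short RNA genes and the group thus moved together, and their part in the results was not tested. Counts of calls are given below also after a smooth trend of the log2 counts along the junction share was removed from each library, which left a correlation of -0.07.

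**Figure D1:**
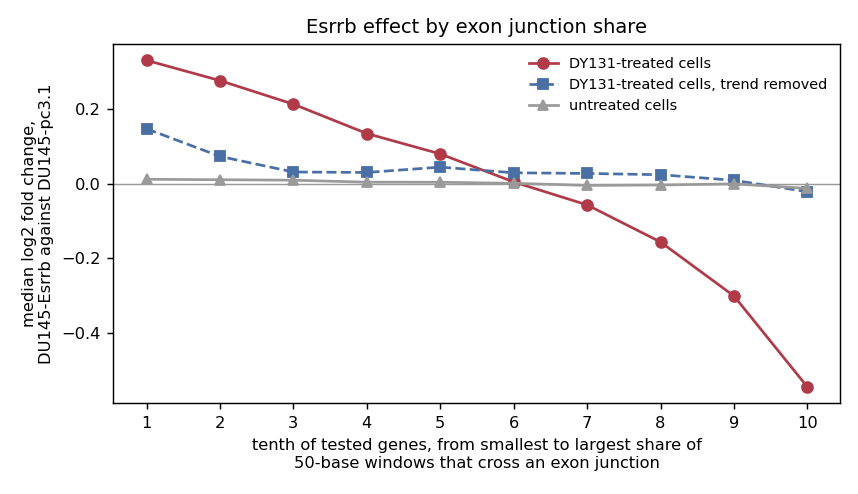
Median log2 fold change of DU145-Esrrb against DU145-pc3.1 (y axis) in 10 equal groups of tested genes ordered from the smallest to the largest percentage of 50-base windows that cross an exon junction (x axis), for DY131-treated cells, for treated cells with the trend removed and for untreated cells. In treated cells the medians run from 0.33 to -0.55, with the trend removed from 0.15 to -0.02, and in untreated cells they lie between -0.01 and 0.01.

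To find the genes that differed between the pools in the presence of DY131, the 13856 genes that reached 1 cpm in 2 or more libraries were compared. Calls needed an adjusted p under 0.05 together with a log2 fold change of 1 or more in either direction. In DY131-treated cells 1137 genes were called, or 8.21% of those tested, of which 298 (2.15%) rose and 839 (6.06%) fell with Esrrb. With the junction trend removed, 846 genes (6.11%) were called, 252 (1.82%) higher and 594 (4.29%) lower. Of these, 766 genes, 204 higher and 562 lower, were called in the same direction both ways. The median log2 fold change was 1.27 among the rises and -1.54 among the falls. Of the 298 genes that rose, 221 had both DU145-Esrrb+DY131 libraries above all 6 other libraries of the series, and of the 839 that fell, 752 had both below all 6 others. The calls rest on the same libraries, so these counts are no separate support for them, and the share over all tested genes is not given here. Between the 2 treated groups alone, 36.9% of all tested genes were higher without overlap in the DU145-Esrrb+DY131 libraries, and 35.8% were lower. No read was counted in either DU145-Esrrb+DY131 library on 54 of the genes that fell. The mean Spearman correlation across tested genes was 0.9706 between the pools after treatment, with 4 values from 0.9704 to 0.9707, against 0.9935 between the DU145-pc3.1+DY131 replicates and 0.9971 between the DU145-Esrrb+DY131 replicates.

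Among the genes that the study followed by qPCR, ZCWPW2 and HOXB8 rose and BMP4 fell in treated cells. ZCWPW2, which encodes a zinc finger protein with domains known to bind methylated histones, was at 1.49 and 0.892 cpm in DY131-treated DU145-pc3.1 cells and at 22.1 and 24.96 cpm in DY131-treated DU145-Esrrb cells. The groups were far apart, and the log2 fold change was 4.28 ± 0.21 (SE) with an adjusted p of 3.73e-10. Of its 50-base windows, 32.6% also occur in transcripts of other genes, so that its count is uncertain to that extent. BMP4, a secreted ligand of the bone morphogenetic protein pathway, was at 1.96 and 3.37 cpm in the control pool and at 0.912 and 1.13 cpm with Esrrb. Its log2 fold change was -1.35 ± 0.39 (SE) with an adjusted p of 0.00927. That call rested on few reads and was lost without DU145-pc3.1+DY131 replicate 2, where the log2 fold change was -0.92, and without library a of DU145-Esrrb+DY131, where it was -1.23 and no longer passed the adjusted p. BMP7, another ligand of the pathway, had 35 and 36 reads in the control libraries and no read and 1 read with Esrrb, a ratio of 56.4-fold with an exact counting interval of 9.81 to 2260. NOG, which encodes the secreted BMP antagonist noggin, fell from 7.28 and 6.54 cpm to 3.26 and 2.82 cpm. These 3 were the only called genes among 18 tested genes of the BMP and TGF-beta pathway (16.7%, against 6.06% of all tested genes called lower). Of the 18, 6 had a positive log2 fold change, at most 0.49.

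The other followed genes did not pass both thresholds in treated cells. AOX1, which encodes aldehyde oxidase, was at 3.74 and 7.43 cpm without and at 4.69 and 4.18 cpm with Esrrb, so that the groups overlapped. F13A1, the A chain of coagulation factor XIII, was at 16.3 and 20.2 cpm without and at 16.1 and 17.2 cpm with Esrrb, and also overlapped. TAGLN, the actin-binding protein transgelin, was at 56.4 and 89.8 cpm without and at 57.6 and 61.7 cpm with Esrrb. Those 3 genes had adjusted p values of 0.359, 0.438 and 0.116, and their untreated log2 fold changes were -3.49, -2.68 and -1.18. PXDN, the matrix enzyme peroxidasin, was lower with Esrrb in both libraries, at 16.7 and 14.0 cpm against 25.4 and 28.2 cpm, but its log2 fold change of -0.81 ± 0.13 (SE) stayed under the threshold. CDKN1A, which encodes the cell cycle inhibitor p21, was at 113 and 117 cpm with Esrrb against 87.4 and 70.8 cpm without. Its log2 fold change was 0.54 ± 0.09 (SE) with an adjusted p of 1.03e-04, also under the fold change threshold, and 0.33 with the junction trend removed. TGFB1, which encodes transforming growth factor beta 1, was at 84.4 and 84.8 cpm with and at 96.7 and 80.3 cpm without Esrrb, with an adjusted p of 0.528.

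After ESRRB, the largest rises among genes called both ways, at 2 cpm or more in the higher group and with at most 20% shared windows, were those of FGB, PEG3, ESM1, CTAGE7P, HOXB8, IL1RL1, GKN2, ZEB2 and SHISA7. FGB, the beta chain of fibrinogen, was at 1.21 and 0.694 cpm in DY131-treated DU145-pc3.1 cells and at 18.4 and 17.2 cpm in DY131-treated DU145-Esrrb cells. Its log2 fold change was 4.19 ± 0.23 (SE) with an adjusted p of 1.39e-09, and both treated DU145-Esrrb libraries were also above the 9.25 and 9.28 cpm of untreated DU145-Esrrb cells. PEG3, an imprinted gene for a zinc finger protein, was at 0.280 and 0.198 cpm without and at 3.91 and 4.41 cpm with Esrrb. ESM1, a proteoglycan secreted by endothelial cells, was at 0.934 and 1.09 cpm without and at 8.21 and 9.26 cpm with Esrrb, 8.58-fold higher with an SE of 0.28 on the log2 scale. The 4 untreated libraries were all below 2 cpm for ESM1.

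IL1RL1, the receptor of the cytokine IL33, was at 1.68 and 2.28 cpm without and at 10.3 and 9.15 cpm with Esrrb. GKN2, which encodes a secreted gastrokine of the stomach lining, was at 1.96 and 3.17 cpm without and at 11.9 and 12.1 cpm with Esrrb. The log2 fold changes of these genes were 2.29 ± 0.23 and 2.23 ± 0.22 (SE), and their groups did not overlap. ZEB2, a repressor of epithelial genes, was at 0.560 and 0.396 cpm without and at 2.74 and 1.47 cpm with Esrrb, so its rise of 2.08 ± 0.50 (SE) on the log2 scale rested on few reads. SHISA7, which encodes a membrane protein that binds neurotransmitter receptors, rose from 1.31 and 1.09 cpm to 4.43 and 5.53 cpm. CTAGE7P, a pseudogene, rose from 0.560 and 0.198 cpm to 2.08 and 2.49 cpm, and 17.6% of its windows are shared with other genes.

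**Figure D2:**
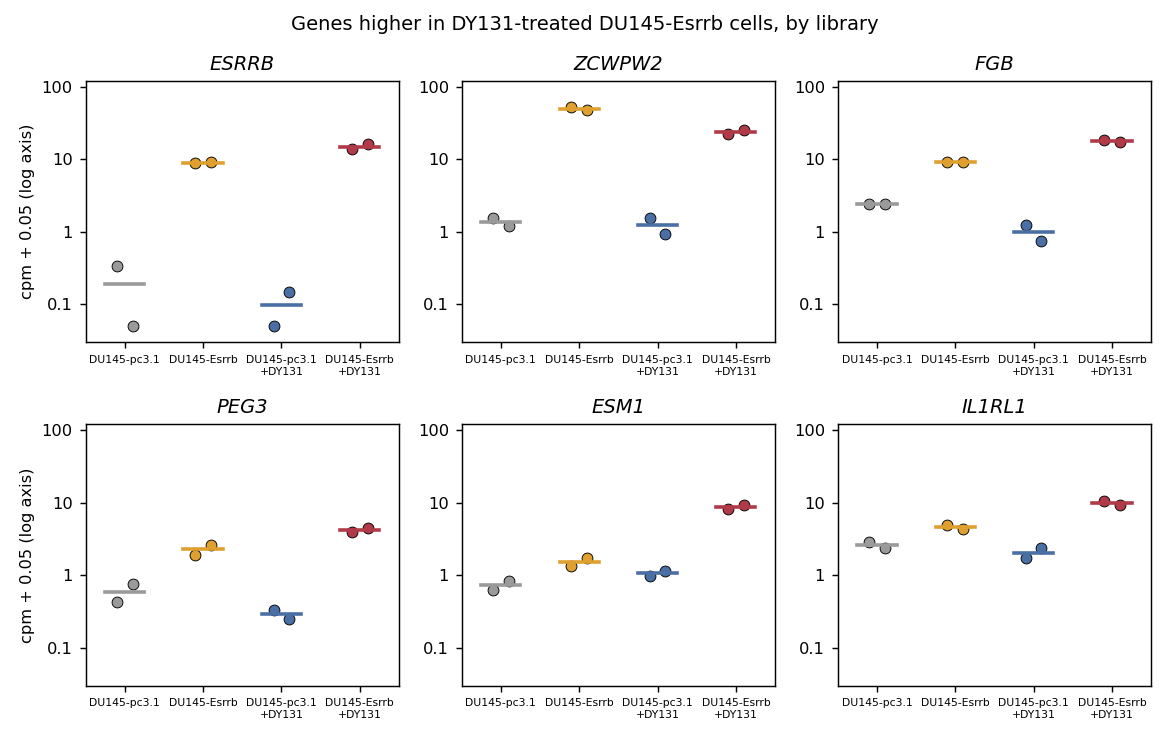
Level of 6 genes (y axis, cpm + 0.05 on a log axis) in each of the 8 libraries (points) of the 4 groups (x axis), with a horizontal line at the mean of each group. In every panel both DU145-Esrrb+DY131 libraries lie above both DU145-pc3.1+DY131 libraries, and for ESRRB, FGB, PEG3, ESM1 and IL1RL1 they also lie above the untreated DU145-Esrrb libraries.

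HOXB8 was not the only gene of its cluster that rose. The HOXB genes lie side by side on chromosome 17 and encode homeodomain transcription factors that pattern the embryo from head to tail. Of the 10 HOXB genes listed, 8 were tested, and 5 of these rose with Esrrb in treated cells (62.5%, against the 2.15% of all tested genes given above), namely HOXB8, HOXB9, HOXB4, HOXB6 and HOXB5. HOXB8 was at 4.39 and 4.26 cpm without and at 24.7 and 24.2 cpm with Esrrb, a log2 fold change of 2.50 ± 0.16 (SE) with an adjusted p of 9.04e-09. HOXB9, the most highly counted gene of the cluster, was at 41.3 and 30.4 cpm without and at 130 and 123 cpm with Esrrb, a log2 fold change of 1.81 ± 0.11 (SE) with an adjusted p of 5.21e-09. Untreated control libraries were at 57.0 and 67.0 cpm for HOXB9, above the treated control libraries. For both genes the 2 treated groups were widely separated and both DU145-Esrrb+DY131 libraries exceeded all 6 others.

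HOXB6 was at 20.5 and 15.6 cpm without and at 44.9 and 50.5 cpm with Esrrb. HOXB5 was at 11.02 and 6.84 cpm without and at 22.0 and 22.3 cpm with Esrrb. HOXB4 was at 0.747 and 0.595 cpm without and at 2.48 and 2.26 cpm with Esrrb, with 12.5% of its windows shared with other genes. The log2 fold changes of these were 1.40 ± 0.12, 1.30 ± 0.18 and 1.79 ± 0.40 (SE). HOXB2, HOXB3 and HOXB7 were higher in both DU145-Esrrb+DY131 libraries than in both DU145-pc3.1+DY131 libraries, with log2 fold changes of 0.72, 0.41 and 0.47 that did not reach the fold change threshold. All 8 tested genes were thus higher without overlap, as were 36.9% of all tested genes. HOXB1 and HOXB13 were not among the tested genes. The median log2 fold change of the 8 was 1.35 in treated cells and 0.42 in untreated cells, against 0.01 over all tested genes in treated cells. The HOXB genes had a small junction share, with a median of 3.00%, and with the junction trend removed 5 of them were still called higher, with a median of 1.19. The difference of the Esrrb effect between treated and untreated cells was called for 5 of the 8, and for 6.28% of all tested genes.

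**Figure D3:**
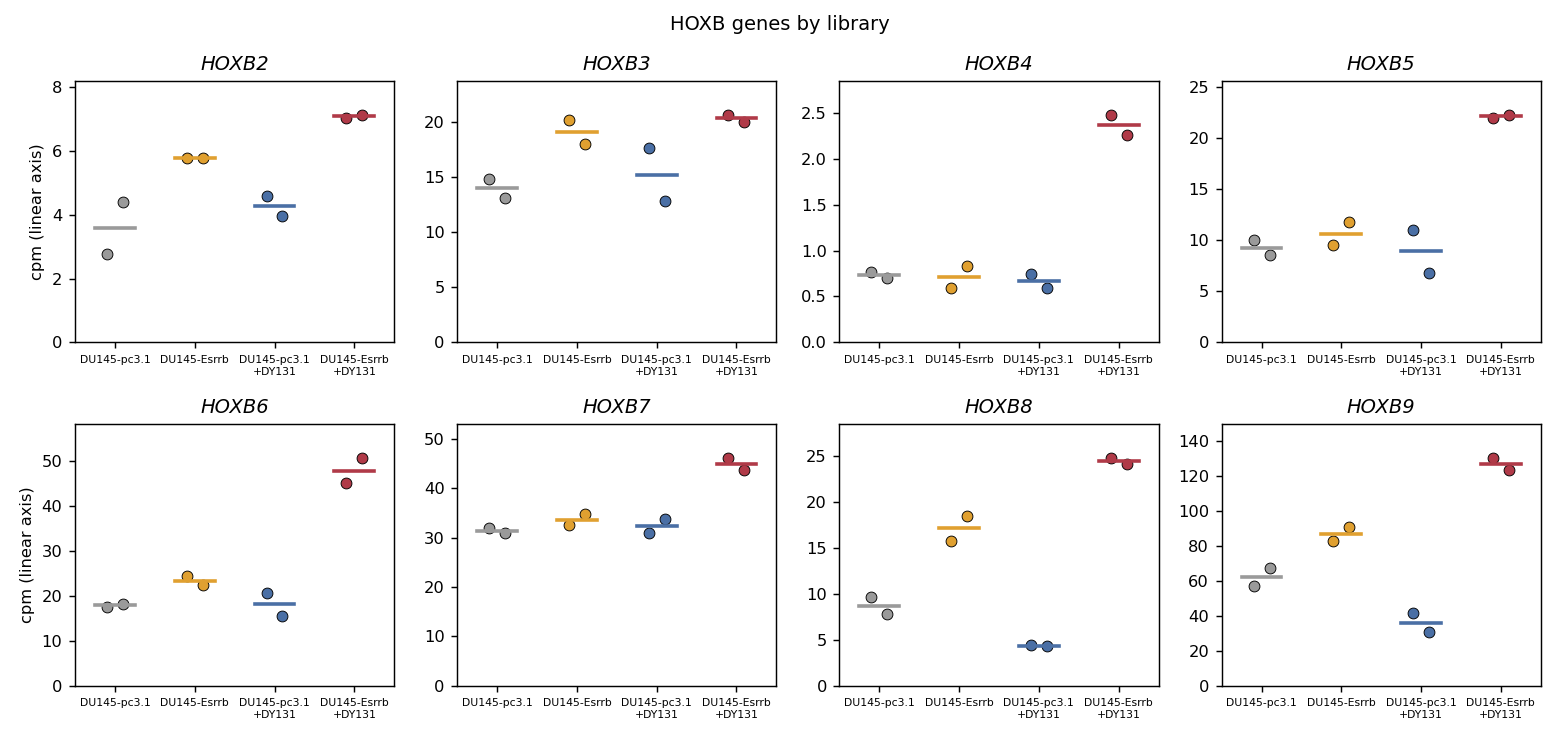
Level of the 8 tested HOXB genes (y axis, cpm on a linear axis from 0) in each of the 8 libraries (points) of the 4 groups (x axis), with a horizontal line at the mean of each group. Both DU145-Esrrb+DY131 libraries lie above both DU145-pc3.1+DY131 libraries in every panel, with the largest log2 fold change, 2.50, for HOXB8.

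More genes fell than rose. Among genes called lower both ways that met the same conditions on level and shared windows, 4 of the 10 largest falls were those of the microRNA genes MIR4461 and MIR3661 and of MTRNR2L3 and MTRNR2L6, genes of the classes that were low in the DU145-Esrrb+DY131 libraries as a whole. Of 40 tested microRNA and small nucleolar RNA genes, 32 fell (against 6.06% of all tested genes) and none rose, with a median log2 fold change of -3.75, whereas that median was -0.05 in untreated cells. The libraries were made with an mRNA kit, so these are reads on the loci and no measure of mature microRNA levels. Whether they came from the small RNAs or from overlapping transcripts was not tested. MIR4461 was at 168 and 38.4 cpm without Esrrb and at 0.782 and 0.678 cpm with Esrrb, so that the control replicates also differed widely. RPS21, which encodes a protein of the small ribosomal subunit, was at 75.1 and 84.6 cpm without and at 0.391 and 0.339 cpm with Esrrb, a log2 fold change of -7.73 ± 0.20 (SE). With 3 reads in each DU145-Esrrb+DY131 library, the counting interval of the 219.6-fold ratio was 100.7 to 599.3. Its windows cross an exon junction more often than those of any other tested gene, at 73.6%, and it was at 83.4 to 98.6 cpm in the 4 untreated libraries.

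The remaining of these falls were at few reads or in unusual loci. LOC100507421 had 24 and 33 reads without Esrrb and none with it, at least 7.55-fold lower against a floor of 3 counts per library. C15orf2, an intronless gene of the Prader-Willi region, had 26 and 26 reads without and none with Esrrb, at least 6.86-fold lower. LY86-AS1, an antisense RNA, had 22 and 22 reads without and none with Esrrb, at least 5.80-fold lower. NARR, which overlaps RAB34, had 99 and 71 reads without and no read and 1 read with Esrrb, a ratio of 135-fold with an exact counting interval of 23.9 to 5367. FKBP1AP1, a pseudogene of the FK506-binding protein gene FKBP1A, had 205 and 236 reads without and 1 and 2 reads with Esrrb, a ratio of 117-fold with an interval of 39.7 to 569. How the counting program treated strand and reads that map to several places is not stated, so the counts of the antisense, overlapping and pseudogene loci are uncertain.

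Further protein-coding genes fell, and of those given here ESRP1 alone was left with few reads. ESRP1, which encodes an epithelial regulator of splicing, was at 8.78 and 16.2 cpm without and at 0.391 and 0.113 cpm with Esrrb, a log2 fold change of -5.61 ± 0.50 (SE) with an adjusted p of 3.25e-07. These were 94 and 163 reads against 3 reads and 1 read, a ratio of 51.1-fold with an exact counting interval of 19.7 to 188.8. TPM1, the actin-binding protein tropomyosin 1, was at 191 and 192 cpm without and at 40.5 and 40.3 cpm with Esrrb, a log2 fold change of -2.24 ± 0.07 (SE). In untreated cells TPM1 was at 86.7 and 86.0 cpm without and at 77.0 and 74.8 cpm with Esrrb. TXN, the redox protein thioredoxin, fell from 269 and 313 cpm to 52.4 and 49.2 cpm. IGFBP3, a secreted binding protein of insulin-like growth factors that was named after its values were seen, was at 185 and 195 cpm without and at 23.6 and 24.3 cpm with Esrrb, a log2 fold change of -2.99 with an adjusted difference p of 1.42e-08 against untreated cells. All 4 were also called lower with the junction trend removed.

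Interferon-induced genes often fell. Type I interferon signals through factors such as STAT2 and IRF9, which act in a complex that binds interferon-stimulated response elements in promoters and switches on antiviral effectors. Of the called members, 4 are shown by the 200 bases that precede their start, because this element was the sequence feature the group was searched for. The sequences are those of RefSeq on GRCh38.p14, printed 5′ to 3′ on the strand of the gene, and the capitals mark matches to GAAANNGAAA on either strand (TTTCNNTTTC when read on the other strand), overlapping matches included. They are the called members with the highest level in DY131-treated DU145-pc3.1 cells that hold a match, at chr10:89327797-89327996 (+) for IFIT3, chr17:78979924-78980123 (−) for LGALS3BP, chr1:1013297-1013496 (+) for ISG15 and chr10:89392423-89392622 (+) for IFIT1.
IFIT3: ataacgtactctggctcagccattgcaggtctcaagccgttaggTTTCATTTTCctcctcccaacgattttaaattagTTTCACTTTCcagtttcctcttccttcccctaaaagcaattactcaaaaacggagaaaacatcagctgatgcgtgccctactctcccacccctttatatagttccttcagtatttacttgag
LGALS3BP: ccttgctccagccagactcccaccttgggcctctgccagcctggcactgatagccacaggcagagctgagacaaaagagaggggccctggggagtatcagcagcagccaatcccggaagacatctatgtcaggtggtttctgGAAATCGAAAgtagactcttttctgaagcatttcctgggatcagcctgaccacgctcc
ISG15: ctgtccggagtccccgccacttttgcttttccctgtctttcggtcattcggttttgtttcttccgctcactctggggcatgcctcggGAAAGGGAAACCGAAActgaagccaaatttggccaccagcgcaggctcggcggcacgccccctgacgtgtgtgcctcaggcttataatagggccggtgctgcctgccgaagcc
IFIT1: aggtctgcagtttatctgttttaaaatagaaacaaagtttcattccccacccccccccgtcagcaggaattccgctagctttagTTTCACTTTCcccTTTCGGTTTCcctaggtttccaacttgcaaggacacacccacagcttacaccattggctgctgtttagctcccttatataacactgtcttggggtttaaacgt

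The ISG15 window holds 2 overlapping matches that begin 113 and 107 bases before its start, the IFIT3 window 2 matches at 156 and 122 bases, the IFIT1 window 2 matches at 116 and 103 bases, and the LGALS3BP window 1 match at 58 bases. Of the 40 tested interferon-induced genes, 31 had a window in the table, and 21 of these (67.7%) held the motif. Among all 27305 genes with a window the share was 2.97%, and among the 9630 tested genes with one it was 2.52%. Within the group, 13 of 16 genes called lower (81.2%) and 8 of 15 not called (53.3%) held it. Among all called genes with a window, it was held by 29 of 528 called lower (5.49%) and by 8 of 146 called higher (5.48%), so that these shares did not differ by direction. The estrogen related receptor element AAGGTCA, searched on both strands in the same windows, was found in none of the 31, in 6 of 146 windows of genes called higher (4.11%), in 18 of 528 of genes called lower (3.41%), in 2.47% of the 9630 tested genes with a window and in 3.36% of all 27305 genes with one. A match is only a run of letters in this window, and binding was not measured.

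Of the 40 tested interferon-induced genes, 19 fell with Esrrb in treated cells (47.5%, against 6.06% of all tested genes) and none rose. IFIT3, an antiviral protein that interferon strongly induces, was at 49.4 and 71.7 cpm in DY131-treated DU145-pc3.1 cells and at 16.9 and 16.9 cpm in DY131-treated DU145-Esrrb cells. Its log2 fold change was -1.83 ± 0.17 (SE) with an adjusted p of 3.91e-07. IFIT1, which binds viral RNA, was at 32.7 and 50.5 cpm without and at 12.1 and 11.97 cpm with Esrrb, a log2 fold change of -1.78 ± 0.19 (SE) with an adjusted p of 1.68e-06. The groups did not overlap, although the control replicates differed from each other more than the Esrrb libraries did, with replicate 2 the higher.

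OASL, a sensor protein related to the oligoadenylate synthetases, was at 17.6 and 21.2 cpm without and at 3.78 and 4.63 cpm with Esrrb. DDX60, a helicase of RNA sensing, was at 11.1 and 11.5 cpm without and at 1.43 and 2.71 cpm with Esrrb. MX1, a GTPase that blocks viral replication, was at 15.4 and 27.8 cpm without and at 7.42 and 5.65 cpm with Esrrb. The log2 fold changes of these effectors were -2.19 ± 0.21, -2.41 ± 0.26 and -1.73 ± 0.25 (SE). ISG15, a ubiquitin-like modifier, was at 41.6 and 58.3 cpm without and at 21.4 and 22.7 cpm with Esrrb, a log2 fold change of -1.18 ± 0.16 (SE). LGALS3BP, a secreted galectin-binding glycoprotein, was at 43.2 and 58.8 cpm without and at 21.0 and 23.2 cpm with Esrrb, a log2 fold change of -1.20 ± 0.16 (SE).

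A few members were at 0 reads in both DU145-Esrrb+DY131 libraries. XAF1, an apoptosis factor, had 12 and 14 reads without Esrrb, and was at least 3.44-fold lower with it. SAMD9L, a restriction factor of poxviruses, had 6 and 19 reads without Esrrb, and was at least 3.35-fold lower. RSAD2, which encodes the antiviral enzyme viperin, had 6 and 11 reads, and was at least 2.26-fold lower. MX2, a relative of MX1, had 14 and 36 reads without and no read and 3 reads with Esrrb, a ratio of 13.3-fold with an exact counting interval of 4.28 to 66.4.

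The upstream factors IRF9 and STAT2 had smaller fold changes than these effectors. IRF9 was at 13.5 and 13.9 cpm without and at 9.64 and 10.3 cpm with Esrrb, a log2 fold change of -0.46 ± 0.15 (SE) under the threshold. STAT2 was at 61.5 and 46.1 cpm without and at 62.0 and 59.4 cpm with Esrrb, with an adjusted p of 0.199. The clearest exception among the induced genes was IFITM2, a membrane protein that blocks viral entry, which was at 30.7 and 39.3 cpm without and at 68.1 and 68.4 cpm with Esrrb, a log2 fold change of 0.97 ± 0.12 (SE) just under the threshold.

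The median log2 fold change of the 40 interferon-induced genes was -0.97 in treated cells and -0.82 in untreated cells. In untreated cells 12 of them were called lower, as were 0.397% of all tested genes, and all 12 were also called lower in treated cells. The difference between the effects was called for 2 of the 40, near the 6.28% of all tested genes. For the others a difference between treated and untreated cells was not called, which does not show that the effects were equal. With the junction trend removed, 18 were called lower in treated cells, with a median of -0.81. The number called lower was 15 without DU145-pc3.1+DY131 replicate 2, and between 15 and 23 over the settings that leave out 1 of the 4 treated libraries.

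**Figure D4:**
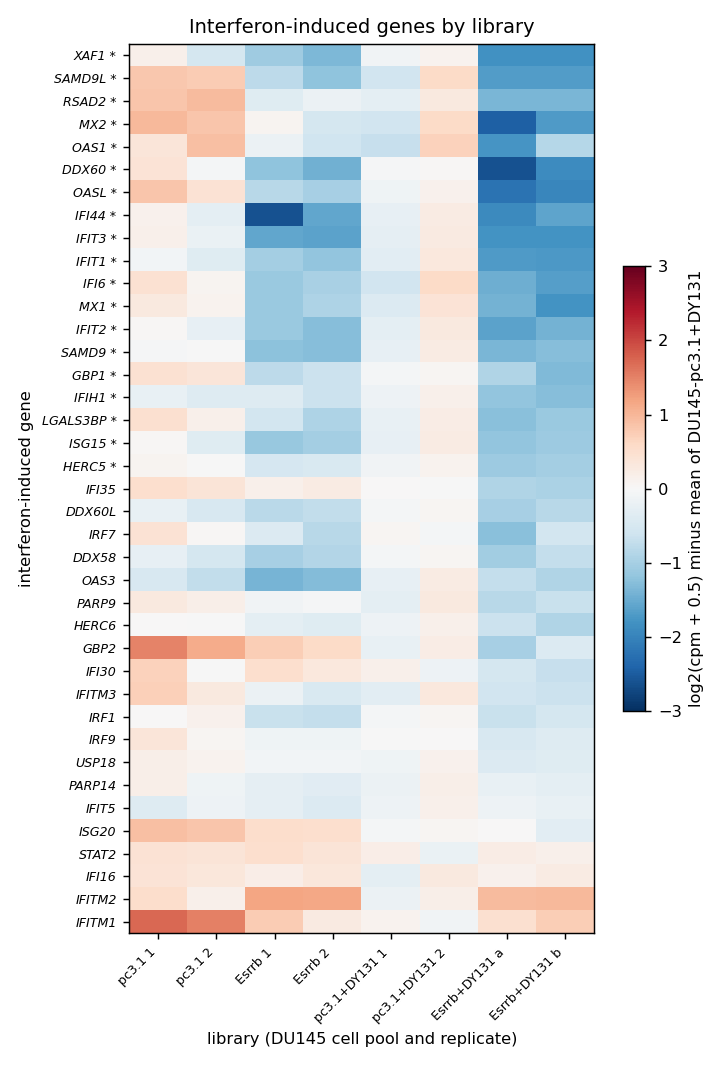
Heat map of 39 of the 40 tested interferon-induced genes (y axis, ordered by the log2 fold change in treated cells, an asterisk marks genes called lower) in the 8 libraries (x axis), colored by log2(cpm + 0.5) minus the mean of the DU145-pc3.1+DY131 libraries. Blue (lower) fills the upper rows of the DU145-Esrrb+DY131 columns, with the 19 called genes at the top, and IFITM2 is red (higher) in all 4 DU145-Esrrb libraries.

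To ask whether DY131-treated cells showed the Esrrb effect of untreated cells, the 80 genes called for Esrrb without DY131 (0.577% of the tested genes) were looked up in the treated comparison. The 2 comparisons share no library, but both come from the model of all 8 libraries, so that the treated libraries had a part in the filter and the error estimate behind the 80 calls. Of the 80 genes, 42 (52.5%) were called in the same direction in treated cells, which is 3.69% of the 1137 genes called there, and 3 were called in the opposite direction. The 80 were 25 genes that rose and 55 that fell. Of the genes that fell without DY131, 34 of 55 also fell in treated cells, against 6.06% of all tested genes, and 45 had both DU145-Esrrb+DY131 libraries below both controls, as did 35.8% of all tested genes. Their median log2 fold change was -1.50 in untreated and -1.29 in treated cells. Of the genes that rose without DY131, 8 of 25 also rose in treated cells, against 2.15% of all tested genes, and 13 had non-overlapping higher libraries, as did 36.9% of all tested genes. Their median log2 fold change was 1.44 in untreated and 0.24 in treated cells. The 8 were ESRRB, ZCWPW2, FGB, PEG3, CCR2, ZNF702P, DDIT4L and ARHGAP24, of which CCR2 had no more than 2 reads in any treated library. Across the 80 genes the Spearman correlation of the effects was 0.57, and across all tested genes it was 0.18. With the junction trend removed, 41 of the 80 were called in the same direction.

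Some genes called higher without DY131 were not called higher with it, and those given here were named after their values were seen. ZC4H2, a zinc finger protein gene of neural development, had a log2 fold change of 3.89 in untreated and -0.62 in treated cells. It was at only 0.0954 and 0.176 cpm in untreated control cells, against 2.29 and 2.11 cpm in untreated DU145-Esrrb cells. TKTL1, which encodes a transketolase-like protein, had a log2 fold change of 1.90 in untreated and -0.81 in treated cells. COL4A5, a chain of basement membrane collagen, was called higher without DY131, at 2.79, and called lower with it, at -1.89 ± 0.43 (SE). For these 3 genes the difference of the effects was itself called. DSG3, a desmosomal cadherin, had a log2 fold change of -5.54 in untreated and -0.25 in treated cells, and this difference was called as well. Its control libraries were at 34.9 and 47.95 cpm without DY131 and at 1.03 and 0.396 cpm with it. DU145-Esrrb libraries were at 0.933 and 0.827 cpm without DY131 and at 0.651 and 0.565 cpm with it, so that the treated value rests on few reads in all 4 libraries.

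The difference of the Esrrb effects was called for 870 genes (6.28% of those tested), at 1.54% in the positive and 4.74% in the negative direction, and for 620 with the junction trend removed. Among the genes followed by qPCR, it was called for AOX1, F13A1, PXDN and HOXB8. AOX1 fell from 64.2 and 72.4 cpm to 5.43 and 6.80 cpm with Esrrb in untreated cells, whereas all 4 treated libraries were between 3.74 and 7.43 cpm, so that the control pool treated with DY131 was already at the low level. The difference was 3.16 on the log2 scale with an adjusted p of 1.15e-05. The differences of F13A1 and PXDN were 2.55 and 1.98. F13A1 was at 39.5 and 38.6 cpm in untreated control cells and at 6.62 and 5.51 cpm in untreated DU145-Esrrb cells, while PXDN was at 40.8 and 34.9 cpm and at 5.004 and 5.97 cpm. HOXB8 rose more with DY131, by a difference of 1.51 with an adjusted p of 1.23e-04, and its DY131-treated control libraries were at 4.39 and 4.26 cpm against 9.63 and 7.74 cpm in untreated control cells. The differences of ZCWPW2 and ESRRB, -0.93 and 2.05, had adjusted p values of 0.0785 and 0.305. ESRRB was at 8.82 and 9.10 cpm in untreated DU145-Esrrb cells and at 13.68 and 16.15 cpm in DY131-treated DU145-Esrrb cells. The part of this in the differences between the effects was not tested.

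**Figure D5:**
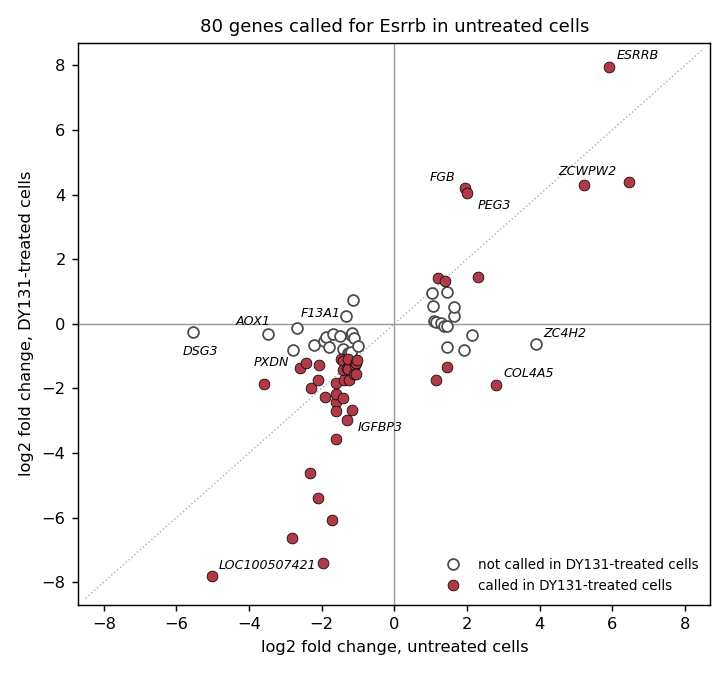
Log2 fold change of Esrrb over control in untreated cells (x axis) and in DY131-treated cells (y axis) for the 80 genes called in untreated cells, filled where also called in treated cells, with the line of equal effects dotted. Genes that fell lie mostly in the lower left, with medians of -1.50 and -1.29, whereas many that rose in untreated cells lie near 0 on the y axis; values beyond -5 are of genes with few or no reads in a group and depend on the prior count.

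TXNIP, an inhibitor of thioredoxin, was among the genes called for a positive difference (treated minus untreated effect). It was at 6.44 and 6.34 cpm in DY131-treated DU145-pc3.1 cells and at 22.7 and 27.0 cpm in DY131-treated DU145-Esrrb cells, against 37.5 to 79.8 cpm in the 4 untreated libraries. PPP1R11, which encodes an inhibitor of protein phosphatase 1, was at 2.15 and 2.28 cpm without and at 6.51 and 6.66 cpm with Esrrb. CCL5, a chemokine that attracts T cells, was at 0.560 and 1.88 cpm without and at 5.47 and 3.16 cpm with Esrrb, with 15.9% of its windows shared with other genes. The differences of these 3 genes against untreated cells were 2.26, 2.54 and 2.63 on the log2 scale. Their log2 fold changes were 1.96, 1.57 and 1.81 in treated cells and -0.30, -0.97 and -0.82 in untreated cells, where none was called. The differences thus span a change of sign. CCL5 was no longer called without library a of DU145-Esrrb+DY131.

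For the lists that follow, the shares to read the counts against are the 6.06% of all tested genes called lower and the 2.15% called higher, or 4.29% and 1.82% with the junction trend removed. Of the metabolic genes, which related receptors are known to drive, none was called higher. Of 19 tested genes of the tricarboxylic acid cycle, 3 fell (15.8%, against 6.06% of all tested genes) and none rose, with a median log2 fold change of -0.38. SDHB, the iron-sulfur subunit of succinate dehydrogenase, fell from 72.3 and 75.8 cpm to 20.8 and 26.7 cpm, while SDHA, the catalytic subunit, was at 192 and 180 cpm without and at 221 and 227 cpm with Esrrb, a log2 fold change of 0.27. SUCLG2, a subunit of succinyl-CoA ligase, fell from 35.3 and 44.6 cpm to 11.2 and 11.97 cpm. DLST, a subunit of the oxoglutarate dehydrogenase complex, fell from 20.7 and 17.8 cpm to 4.82 and 6.10 cpm, but 54.3% of its windows cross a junction and it was not called with the junction trend removed. Of 15 genes of fatty acid oxidation, 1 fell (6.67%, near the 6.06% of all tested genes) and none rose. That gene was ETFA, an electron carrier, which was at 78.4 and 86.5 cpm without and at 28.4 and 30.7 cpm with Esrrb.

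Of 73 respiratory chain subunit genes, 15 fell (20.5%, against 6.06% of all tested genes) and none rose, with a median of -0.39, and 12 fell with the junction trend removed (against 4.29%). ATP5I, a small subunit of ATP synthase, fell from 32.4 and 36.2 cpm to 0.912 and 1.13 cpm. NDUFA11, a subunit of complex I with a junction share of 6.24%, fell from 38.1 and 44.1 cpm to 10.2 and 8.02 cpm. Of 77 cytosolic ribosomal protein genes, 24 fell (31.2%, against 6.06%) and none rose, with a median of -0.58, and 18 fell and 1 rose with the trend removed (against 4.29% and 1.82%). RPS29, a protein of the small subunit, fell from 433 and 477 cpm to 17.5 and 19.99 cpm, and RPL36A, a protein of the large subunit, fell from 74.0 and 85.0 cpm to 4.30 and 4.07 cpm. Both were assigned few windows across junctions, 1.40% and 3.88%. The shares of RPS29, RPL36A and NDUFA11 are those of the longest matched transcript, of 7062, 2240 and 2406 bases. A shorter transcript with the same junctions would have a larger share, so these values do not set the 3 genes apart from the junction trend. Which transcript was expressed was not tested. In untreated cells, where 0.577% of all tested genes were called, no gene of the respiratory chain and ribosomal protein lists was called. The medians there were -0.03 and -0.10.

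Of 11 tested genes of the receptors and their coregulators, ESRRB was the only one called, at a median of 0.01 for the list. NRIP1, a corepressor of nuclear receptors, was at 175 and 187 cpm without and at 236 and 242 cpm with Esrrb, a log2 fold change of 0.40 ± 0.06 (SE) under the threshold. PPARGC1A, the coactivator best known to work with these receptors, was not among the tested genes.

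Among the 9 tested pluripotency factors, NR5A2 and KLF2 rose and none fell. NR5A2, an orphan nuclear receptor that can act in place of the factor OCT4, was at 2.99 and 2.28 cpm without and at 8.08 and 7.12 cpm with Esrrb, a log2 fold change of 1.51 ± 0.25 (SE) with an adjusted p of 1.24e-04. KLF2, a Krüppel-like factor of the stem cell network, was at 3.17 and 4.56 cpm without and at 9.25 and 8.13 cpm with Esrrb, and was not called with the junction trend removed or without DU145-pc3.1+DY131 replicate 1. POU5F1, SOX2 and NANOG were not among the tested genes.

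Of 42 G1/S and DNA replication genes, 4 fell (9.52%, against 6.06% of all tested genes) and none rose, with a median of -0.18, which became -0.07 with 2 falls when the junction trend was removed (against 4.29%). POLE2, a subunit of DNA polymerase epsilon, fell from 45.6 and 46.8 cpm to 10.3 and 11.6 cpm and remained called. Of 42 G2/M and mitotic genes, 3 fell (7.14%) and none rose, with a median of -0.31, which became -0.07 with 1 fall, that of the kinetochore gene SPC24. The called shares of both cell cycle lists were thus near those of all tested genes. At an adjusted p under 0.05 alone, with the trend left in, 20 of the G1/S genes and 26 of the G2/M genes were lower. By that measure 3 of each list were higher, and 25.3% of all tested genes were lower and 25.1% higher. None of 10 tested genes for inhibitors of cyclin-dependent kinases and D cyclins was called, although 7 of them were higher with Esrrb at an adjusted p under 0.05, as were 25.1% of all tested genes. The largest log2 fold changes of that list were 0.87 ± 0.18 (SE) for CDKN2D and the 0.54 of CDKN1A. The list had a small junction share, with a median of 4.71%. With the junction trend removed its median log2 fold change went from 0.23 to 0.07, and CDKN1A was at 0.33. None of 21 p53 target genes was called. The stress factor gene DDIT3 was the only one of 22 genes of the ATF4 response to be called, rising from 22.0 and 20.1 cpm to 46.2 and 44.4 cpm.

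Of the 16 tested EMT regulators and markers, 4 fell (against 6.06% of all tested genes) and 1 rose (6.25%, against 2.15%). Beside ESRP1 and ZEB2, CLDN7 and CLDN4, claudins of epithelial tight junctions, fell from 19.5 and 25.9 cpm to 9.51 and 10.96 cpm and from 25.2 and 29.2 cpm to 13.2 and 13.9 cpm. The call of CLDN7 was lost without DU145-pc3.1+DY131 replicate 2. OVOL2, a repressor of mesenchymal genes, fell from 2.24 and 1.98 cpm to 1.30 and 0.678 cpm, a call lost in several alternatives. CDH1, which encodes E-cadherin, was at 78.8 and 113 cpm without and at 62.3 and 73.2 cpm with Esrrb, a log2 fold change of -0.49 ± 0.12 (SE) under the threshold. VIM, the intermediate filament of mesenchymal cells, was at 2291 and 2121 cpm without and at 2794 and 2770 cpm with Esrrb, a log2 fold change of 0.34 ± 0.06 (SE). ZEB1, a paralog of ZEB2, had 0.49 ± 0.09 (SE).

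Of 18 basement membrane genes 4 fell (22.2%, against 6.06% of all tested genes) and none rose, of which AGRN and COL4A5 remained called with the junction trend removed. AGRN, the proteoglycan agrin, was at 756 and 684 cpm without and at 306 and 308 cpm with Esrrb. COL4A1 and COL4A2, the major collagen IV chains, fell by 1.29 and by 1.21 on the log2 scale. None of 16 desmosome genes and keratins was called. Of 20 contractile genes and targets of SRF and YAP, TPM1 fell as above and CTGF, a matricellular growth factor, fell from 58.5 and 35.8 cpm to 22.5 and 22.7 cpm, a call lost without DU145-pc3.1+DY131 replicate 1.

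Among 15 tested cytokines and chemokines, 2 rose and 2 fell. Beside CCL5, IL11, a cytokine of the IL6 family, rose from 29.1 and 22.9 cpm to 61.9 and 51.5 cpm, but was not called with the junction trend removed, without DU145-pc3.1+DY131 replicate 2 or without library a of DU145-Esrrb+DY131. IL6 itself fell from 8.31 and 8.13 cpm to 3.78 and 2.15 cpm, a log2 fold change of -1.49 ± 0.23 (SE) with an adjusted p of 7.85e-05. CXCL5, which attracts neutrophils, fell from 21.1 and 19.5 cpm to 10.9 and 7.34 cpm, a call lost without library b of DU145-Esrrb+DY131, while it had been higher with Esrrb in untreated cells, at 11.2 and 11.1 cpm against 5.82 and 6.07 cpm. The difference of these effects was -2.07 on the log2 scale with an adjusted p of 1.32e-05. Of 20 immediate early genes, the phosphatase gene DUSP4 was the only one called, rising from 16.7 and 15.4 cpm to 36.3 and 31.7 cpm, and this call was lost with the junction trend removed and without library a of DU145-Esrrb+DY131.

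Of 29 genes of cholesterol and fatty acid synthesis, LSS, the enzyme that makes lanosterol, was the only one called, falling from 35.5 and 34.4 cpm to 15.8 and 14.3 cpm, and it was not called with the junction trend removed. Of 28 hypoxia and glycolysis genes, SLC2A3 and ADM fell (7.14%, near the 6.06% of all tested genes) and none rose. The call of ADM, a vasodilator peptide gene, was lost with DESeq2, without DU145-pc3.1+DY131 replicate 2 and without library a of DU145-Esrrb+DY131. SLC2A3, a glucose transporter, had 15 and 10 reads without and no read and 2 reads with Esrrb, a ratio of 9.93-fold with an exact counting interval of 2.48 to 86.5. Of 26 metallothionein and NRF2 target genes, 3 fell and none rose, namely TXN, MT1X and MT1B. MT1X, a metal-binding protein, fell from 12.98 and 13.97 cpm to 4.82 and 5.65 cpm, and 44.4% of its windows are shared with other genes.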

How the data were processed

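RNA from 2 biological replicates of each of 4 groups (8 samples) was made into TruSeq Stranded mRNA libraries and sequenced in 1 HiSeq lane from 1 end for 50 bases. The authors cleaned the reads (FASTX-Toolkit), aligned them to hg18 (TopHat2), and deposited raw read counts per gene from their tool MULTICOM-MAP. These deposited counts are whole numbers for 23391 genes without normalization, with 7858743 to 11551690 counted reads per library. How strand and reads that map to several genes were treated is not given in the sources used here, and 28 symbols had been turned into dates.

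The 13856 genes that reached 1 cpm in 2 or more libraries were tested. Counts were scaled by TMM and all 8 libraries were fitted in 1 model with 4 groups in edgeR 4.0.16 (R 4.3.3), and tested by quasi-likelihood, with p-values adjusted by the Benjamini-Hochberg method. The study's exact test, DESeq2 1.42.0, other scalings, filters and thresholds, and fits without each library were alternatives. Floors are 3 counts per library, and intervals and floors cover counting error only.

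Junction shares, shared windows and positions came from GENCODE 29 on GRCh38, not hg18, through RefSeq identifiers, current symbols or older symbols (22018, 719 and 135 genes), and 98.6% of the tested genes had a junction share. Where several transcripts matched, the longest was used, so the junction share of a gene expressed from a shorter transcript can be wrong. The junction trend was fitted with mgcv 1.9.3. Promoter windows came from RefSeq on GRCh38.p14, matched by symbol for 9630 tested genes. Counting and plotting used Python 3.11.15, pandas 2.3.3, scipy 1.17.1 and matplotlib 3.10.9.

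On counts simulated for 13667 genes with 200 changed by 2 on the log2 scale, the quasi-likelihood test recovered 200 with 0 false calls. With a simulated junction bias over 13676 genes, it recovered 197 with 163 false calls, and 200 with 3 false calls once the trend was removed. The simulated bias was of the kind that the correction removes. These runs therefore check the fit only, and they do not show how well the correction works on the real libraries.

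Genes were named by a rule: ESRRB, ESRRG and the genes the study followed by qPCR, the 10 largest rises and falls that were called with and without the junction correction, did not overlap, had a mean of at least 2 cpm in the higher group and shared at most 20% of windows, up to 12 genes called with and without DY131, the 5 largest differences in each direction, and up to 4 called members of each gene list beside members with a defining role. The comparison, the gene lists and the genes to name were chosen with earlier results of these data known, and lists were described by counts and medians without a set test. The lists were counted whole, and 1 tested member of the interferon list is not reported here by name.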

Additional observations from a re-analysis of the deposited data

Results flagged for a closer look

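The Esrrb effect in DY131-treated cells differed from that in untreated cells in 870 genes, by the interaction test of edgeR with Benjamini-Hochberg adjustment. Of 40 genes that were named for the study's qPCR, for a large change in treated cells, for a call in both treated and untreated cells or for a large difference, 29 differed at an adjusted p under 0.05, 16 with a positive and 13 with a negative difference (treated minus untreated, log2 scale). Of all tested genes, 33.7% differed at that threshold, and part of the 40 were chosen for the size of this difference, so that their passing was fixed by the choice.

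Among the genes followed by qPCR, the differences were 1.51 for HOXB8, 0.89 for TAGLN, 2.55 for F13A1, 1.98 for PXDN, 3.16 for AOX1, -0.42 for TGFB1 and 0.78 for CDKN1A. For AOX1, F13A1, PXDN and TAGLN, the positive sign stands for a fall in untreated cells that was smaller in treated cells.

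Among the largest rises, the differences were 2.23 for FGB, 2.06 for PEG3, 2.03 for ESM1, 1.43 for IL1RL1, 1.27 for GKN2 and 2.39 for SHISA7. Among genes chosen for the size of the difference, they were 2.63 for CCL5, 2.54 for PPP1R11, 2.34 for CEACAM6 and 2.26 for TXNIP. CEACAM6, an adhesion molecule of epithelial cells, was at 0.467 and 0.793 cpm in DY131-treated DU145-pc3.1 cells and at 1.30 and 1.58 cpm in DY131-treated DU145-Esrrb cells, and was not called there.

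Among the largest falls, the differences were -7.60 for RPS21, -7.45 for C15orf2, -8.02 for LY86-AS1, -7.24 for MIR4461, -7.25 for NARR, -6.68 for FKBP1AP1, -6.43 for MIR3661, -6.48 for MTRNR2L3 and -6.22 for MTRNR2L6. Further negative differences were -5.45 for QPRT, an enzyme of NAD synthesis, -3.30 for ARSD, a sulfatase gene, and -7.45 for the pseudogene GMCL1P1. The values for C15orf2, LY86-AS1, QPRT and GMCL1P1 depend on the prior count, since no read was counted on them in either DU145-Esrrb+DY131 library. Against the floor of 3 counts per library, QPRT was at least 5.67-fold lower and GMCL1P1 at least 4.57-fold lower with Esrrb in treated cells.

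Genes of the lists and of the untreated calls that the text gives with a difference, and that were chosen after their values were seen or as list members, also differed, at -4.68 for COL4A5, -2.07 for CXCL5, -1.68 for IGFBP3, -4.52 for ZC4H2, -2.71 for TKTL1 and 5.29 for DSG3.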

How the results depend on the processing

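In DY131-treated cells 1137 genes were called, and the number was 721 with at least 10 counts in every library, 6982 without a fold change threshold, 523 at a log2 fold change of at least 1.5 and 328 among the 4555 genes with a junction share of at most 9.09%, and the first and last of these test fewer genes. It ranged from 990 to 1229 when each library was left out, and without DU145-pc3.1+DY131 replicate 1 it split into 414 higher and 815 lower. In untreated cells, where 80 were called, it was 48 with DESeq2, 43 with at least 10 counts, 578 without a fold change threshold, 39 at 1.5 and 33 among the 4555 genes, and from 46 to 126 with a library left out (46, 51, 48 and 50 without each untreated library in turn, 126 and 123 without DU145-pc3.1+DY131 replicate 1 and 2). The called difference, 870, became 4673 without a fold change threshold, 417 at 1.5 and 209 among the 4555 genes. The cause of the other changes was not tested. Without a filter on low counts the correlation between the treated pools was 0.9756. The Spearman correlation across genes of the treated log2 fold change with the junction share, recomputed in alternatives chosen after seeing the data, was between -0.53 and -0.44 under DESeq2, other scalings, filters and each library left out.

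Of the genes not called in treated cells, 4 changed sign. With each library left out, the log2 fold change of TAGLN ranged from -0.60 to 0.082, of F13A1 from -0.29 to 0.03, of AOX1 from -0.76 to 0.24 and of TGFB1 from -0.19 to 0.062. AOX1 was at 0.13 with the junction trend removed. CCR2 and CYP4F3, at no more than 4 reads in any treated library, lost their calls in most of the settings that leave out a treated library and under the exact test and DESeq2.

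No paired analysis was possible because the DU145-Esrrb+DY131 columns carry no replicate numbers. For the untreated cells the replicate block gave 66 calls in the 6 numbered libraries, against 68 without the block, and the correlations of same-numbered deviations were 0.11 and 0.02, so that the libraries share only a number.

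With 2 libraries per group and 7858743 to 11551690 reads, genes of a few reads were the least certain. The median of the interferon-induced genes was negative and that of the HOXB genes positive in all 19 alternatives run for each.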
